A study of Drosophila melanogaster with 3 samples.

Results

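The proteasome subunit genes of Drosophila melanogaster were examined for binding of croc-eGFP, the forkhead-domain transcription factor crocodile fused to enhanced green fluorescent protein. Every protein-coding gene of the Ensembl BDGP6 annotation whose symbol begins with Prosalpha, Prosbeta, Rpn or Rpt and a digit was taken, which gave 48 genes of 13945 on the 6 chromosome arms. Of these, 32 carry a plain subunit number and are called canonical here, and 16 are paralogues whose symbol adds R or T. Chromatin came from whole embryos aged 0 to 18 h of the croc-GFP strain, in 3 biological replicates of a single group, and was immunoprecipitated with an anti-GFP antibody and sequenced (ChIP-seq). All embryos carried the transgene, and control libraries were not analysed here. Whole embryos mix all cell types, so strong binding in few cells and weak binding in many cannot be told apart.

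The 26S proteasome degrades proteins that carry ubiquitin chains. Its 20S core stacks rings of alpha subunits, which gate the entrance, around rings of beta subunits, some of which cut peptide bonds. The 19S particle that caps the core has a base, with a ring of ATPases (Rpt subunits) that unfold substrates, and a lid, which removes ubiquitin. All cells need the complex, and its canonical genes are active in every tissue, while many of the R and T paralogues in flies are expressed in the testis.

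A gene was counted as having a peak when its transcription start site was the nearest protein-coding start to the summit of a conservative peak, within 10 kb. Conservative peaks are those of the series-level list that its submitters named conservative. Of the 48 proteasome genes, 5 had such a peak, namely Rpn3, Rpn5, Rpn6, Rpn11 and Rpn13. Each had 1 peak, and each summit lay upstream of the nearest start site of its gene, at a distance of 26 to 229 bp. Of the 3220 conservative peaks assigned to other genes, 45.7% had the summit within 500 bp of a start. Of those 1473 peaks, 83.4% also lay upstream, and their median distance was 139 bp. The sequences below are the 101 bp centred on the proteasome summits, shown because they carry the binding calls on this gene family. They are read from Release 6 (dm6) on the strand of the gene, and letters would be capitals where a searched word occurred. None occurred in the windows shown. The fourth is the summit between Prosbeta2 and mRpL39, which was assigned to mRpL39. The windows of Rpn6 and Rpn13 are not shown, and each held a searched word, given further on.

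Rpn3, chr2L:19051714-19051814, plus strand: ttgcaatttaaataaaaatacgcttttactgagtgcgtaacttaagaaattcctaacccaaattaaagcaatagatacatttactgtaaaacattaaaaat
Rpn11, chr2L:5059969-5060069, minus strand: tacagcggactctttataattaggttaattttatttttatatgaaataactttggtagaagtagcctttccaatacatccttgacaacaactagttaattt
Rpn5, chr3R:5789394-5789494, plus strand: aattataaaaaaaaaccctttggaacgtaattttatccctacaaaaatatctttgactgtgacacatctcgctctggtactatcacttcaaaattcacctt
Prosbeta2 and mRpL39, chr3L:14999758-14999858, plus strand: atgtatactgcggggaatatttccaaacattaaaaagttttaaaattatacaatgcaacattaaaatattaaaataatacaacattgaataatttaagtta

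These windows were rich in A and T, at 75.2% for Rpn3, 72.3% for Rpn11, 68.3% for Rpn5 and 80.2% between Prosbeta2 and mRpL39. Over the 5 proteasome summits the values ran from 61.4% at Rpn6 to 75.2% at Rpn3. Their median was 72.3%, against 70.3% for the 1473 promoter summits of other genes. At the positions 500 bp to the left it was 39.6%, against 53.5% for the other genes. Left means lower coordinates whatever the strand, so these positions mix upstream and downstream sides. The 5 values there ran from 34.7% at Rpn11 to 66.3% at Rpn5. A promoter summit is one within 500 bp of a protein-coding start.

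The first comparison asked whether proteasome genes carried peaks more or less often than other genes. The 5 of 48 genes were 10.4% (exact Clopper-Pearson 95% interval 3.47 to 22.7, with genes as units), and 15.9% of all protein-coding genes had a peak. All 5 were canonical genes, of which 5 of 32 are 15.6% (5.28 to 32.8), nearly the share of all genes, and the 16 paralogues added none. The sequence nearer to a gene's starts than to any other start, and within 10 kb, had a median length of 2427 bp for proteasome genes, against 4328 bp for all genes. Among genes whose nearest sequence fell in the range of the proteasome genes, 14.6% had a peak. Between the quartiles of the proteasome genes (1287 and 5012 bp), 3 of 24 proteasome genes had a peak, 12.5%, and 11.1% of all genes in that interval did. The share of proteasome genes was near that of genes with a like length of sequence, and its interval covered each of these values.

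Other large complexes differed more among themselves. Of the cytoplasmic ribosomal protein genes, 43.2% had a peak (38 of 88), a share above the interval of the proteasome genes. The mitochondrial ribosomal protein genes had 12.3% (9 of 73). The eIF3 and COP9 signalosome complexes share a common architecture with the proteasome lid. Of the eIF3 genes, which act in translation initiation, 25% had a peak (4 of 16), and of the COP9 signalosome genes 0% did (0 of 8). The CCT chaperonin genes also had 0% (0 of 8). No test of these differences was made, and lists of 8 genes allow shares of up to 36.9% at a count of 0.

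**Figure D1:**
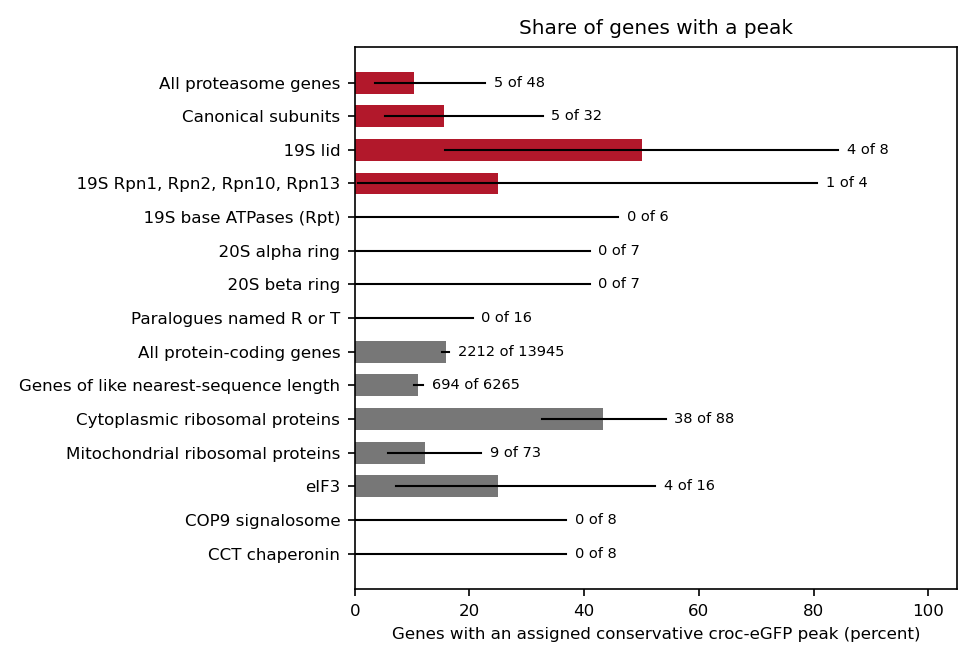
Percent of genes with an assigned conservative peak, for proteasome genes and their groups (red) and other genes (grey). Lines are exact 95% intervals with genes as units, and labels give the counts. The 19S lid stands at 4 of 8 genes, while the ATPases, both 20S rings and the paralogues stand at 0.

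By role, 4 of the 5 genes encode lid subunits. Of the 8 lid genes that the symbol rule takes in, 4 had a peak, 50% (exact 95% interval 15.7 to 84.3), beside the 15.9% of all genes. Sem1, a small lid subunit whose symbol is outside the rule, had none, and with it the count is 4 of 9, 44.4%. In the thresholded lists of replicates 1, 2 and 3, described further on, the 8 lid genes had 1, 1 and 2 with a peak, 12.5%, 12.5% and 25%, beside 14.9%, 12.3% and 9.73% of all genes. In replicate 1 the alpha and beta rings had 1 of 7 each, 14.3%, so the lid did not lead there. Rpn11 is the enzyme that strips ubiquitin from the substrate, and Rpn3, Rpn5 and Rpn6 are structural subunits that hold the lid together. Of the 8, Rpn7, Rpn8, Rpn9 and Rpn12 had no conservative peak. Rpn13, a ubiquitin receptor on the base, was the only one of the 4 non-ATPase subunits Rpn1, Rpn2, Rpn10 and Rpn13 with a peak. None of the 6 ATPase genes Rpt1 to Rpt6, the 7 alpha ring genes or the 7 beta ring genes had an assigned peak, and the exact upper limits on these shares were 45.9%, 41% and 41%. The 16 paralogues had none either (upper limit 20.6%). The roles were written down after the peaks were seen, and the intervals of the groups overlap, so no difference between roles was tested.

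The paralogues lay farther from conservative summits than the canonical genes. The median distance from a start to the nearest conservative summit, whichever gene it was assigned to, was 46178 bp for the 16 paralogues and 4856 bp for the 32 canonical genes, against 11092 bp for all protein-coding genes. The closest summit to any paralogue was 3994 bp away, at Prosbeta2R2. The farthest was 155070 bp away, at Prosbeta5R2. Among canonical genes the distance ran from 26 bp at Rpn3 to 36467 bp at Rpn8. The 2 groups also differ in spacing, with a median nearest sequence of 3992 bp for paralogues and 1692 bp for canonical genes. Whether spacing accounts for the distances was not tested.

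The peaks at proteasome genes were weak members of the list. The signal of a peak is a number from the submitters' peak caller with no stated scale, and serves here only to order peaks within a list. Rpn3 had the strongest, with a signal of 188.5 and rank 1749 of 3644. Rpn6 followed with 136 (rank 2622), Rpn13 with 128 (rank 2763), Rpn11 with 122 (rank 2872) and Rpn5 with 39.4 (rank 3276). The median signal percentile of the 5 was 24.2, against 55.7 for promoter peaks of other genes. Only Rpn3 lay above the middle of the list, at percentile 52.

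On dm6 the peaks spanned chr2L:19051572-19051955 at Rpn3 (FBgn0261396), chr2R:14752188-14752571 at Rpn6 (FBgn0028689) and chr2R:13960322-13960705 at Rpn13 (FBgn0033886). Those of Rpn11 (FBgn0028694) and Rpn5 (FBgn0028690) spanned chr2L:5059827-5060210 and chr3R:5789252-5789635. The summit at Rpn6, which has 2 annotated start sites, lay in an intron of that gene. The other 4 summits lay between protein-coding genes.

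Replicates were compared through their own lists. Each replicate has a thresholded list and a longer ranked list, both made with the irreproducible discovery rate (IDR), which scores how well a peak's rank repeats. The ranks and percentiles given here are by signal within each list. A summit within 250 bp of the conservative summit was counted as shared. Rpn3 was the only one of the 5 with a shared summit in the thresholded list of all 3 replicates. It had signals of 73.3, 66.4 and 53.0 in replicates 1, 2 and 3, which placed it at percentiles 92.7, 88.6 and 93 of the ranked lists (mean 91.4 ± 2.43 SD, n = 3). These summits lay 14, 25 and 42 bp from the conservative summit, all on the side away from Rpn3.

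Rpn13 passed the threshold in replicate 1 alone. Its signals were 62.8, 40.3 and 33.6 in replicates 1, 2 and 3, with −log10 IDR values of 3.34, 1.55 and 0.766, where 2 is the threshold. Replicate 1 stood apart from the others in IDR, while the percentiles ran from 78.0 to 91.0. Rpn11 passed in replicate 3 alone, with signals of 40.8, 40.1 and 45.3 and −log10 IDR values of 0.441, 0.586 and 2.14. Its summits in the replicates lay 18, 100 and 77 bp from the conservative summit.

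Rpn6 passed in no single replicate. Its −log10 IDR values were 1.49 and 1.78 in replicates 1 and 2, just under the threshold, and 0.0515 in replicate 3, where the peak ranked 14683. Its percentiles were 88.9, 86.6 and 35.4 (mean 70.3 ± 30.3 SD, n = 3), so replicate 3 was far below the others.

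The peak at Rpn5 had the lowest signal of the 5 and was the only one with a stronger summit within a peak width, although its score was the highest possible, 1000. Its summit lay 49 bp from the start of Rpn5 and 60 bp from that of Hat1, a histone acetyltransferase gene transcribed in the opposite direction. A stronger conservative summit lay 204 bp away in an intron of Hat1 and was assigned to that gene: the signal was 39.4 at the Rpn5 summit, against 120.9 at the Hat1 summit. Replicate 1 had a thresholded peak 122 bp from the Rpn5 summit, with a signal of 50.8, on the side of Hat1. It lay 82 bp from the Hat1 summit. Replicate 3 had a ranked peak 237 bp from the Rpn5 summit and 33 bp from the Hat1 summit that did not pass. Replicate 2 had none within 250 bp of the Rpn5 summit. With peaks that have a stronger summit within 1 peak width (384 bp) left out, 4 proteasome genes were counted, and Rpn5 was the one that was lost.

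Over all peaks of the family, 1 of 5 was shared with all 3 replicates, 3 with 1 and 1 with none. The count for Rpn5 rests on the replicate 1 summit that lay nearer to the Hat1 summit. For promoter peaks of other genes, 753 of 1473 (51.1%) were shared with all 3, 262 with 1 and 130 with none. The other 3 thresholded lists of the series held 2, 4 and 3 proteasome genes, all among the 5, and 13.5%, 14.6% and 14.4% of all genes.

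**Figure D2:**
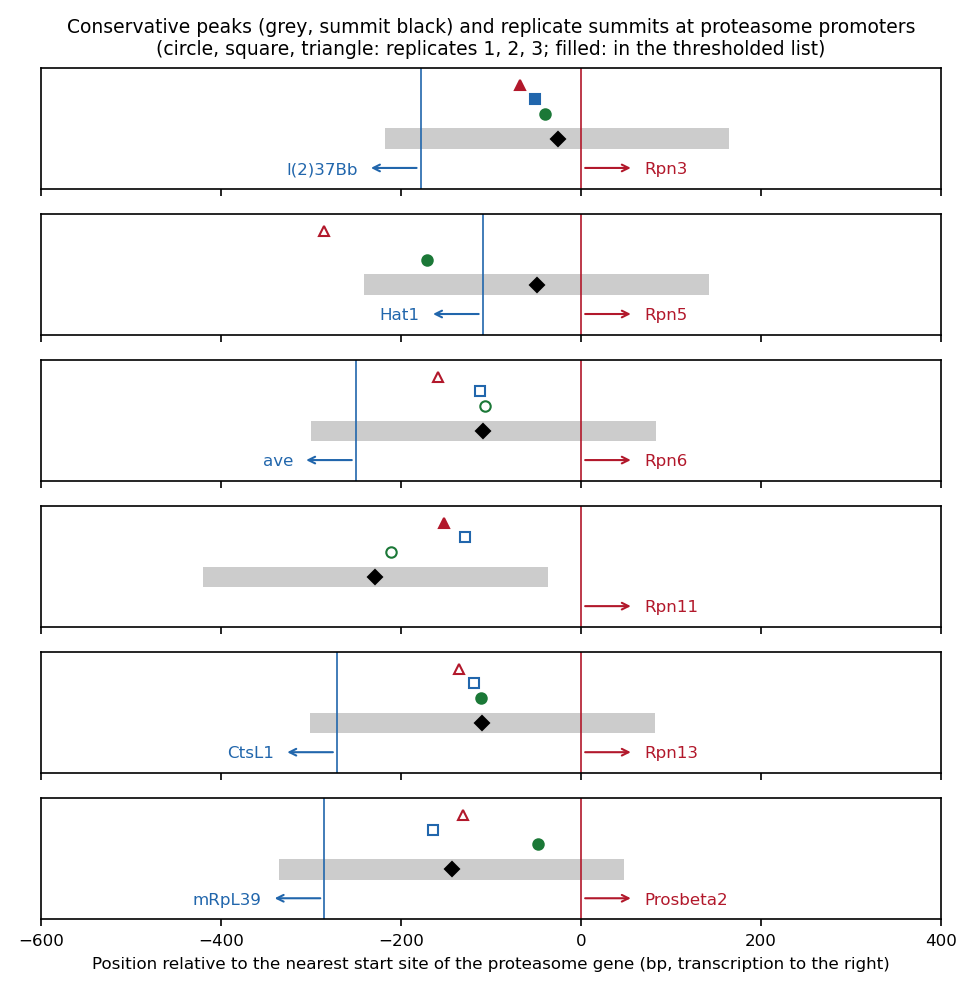
Conservative peaks at 6 proteasome promoters, drawn in bp from the nearest start of the proteasome gene, with grey bars for peaks, black diamonds for their summits, and circles, squares and triangles for the summits of replicates 1, 2 and 3 (filled where in the thresholded list). Blue lines mark the start of the neighbouring gene; only at Rpn3 are all 3 replicate symbols filled.

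The thresholded lists of single replicates gave 4, 1 and 2 proteasome genes in replicates 1, 2 and 3 (mean 2.33 ± 1.53 SD, n = 3). These are 8.33%, 2.08% and 4.17% of the family, against 14.9%, 12.3% and 9.73% of all protein-coding genes. The exact 95% intervals of the family were 2.32 to 20, 0.0527 to 11.1 and 0.509 to 14.3, and those of replicates 1 and 3 cover the share of all genes. Between the length quartiles, 2, 1 and 1 of 24 proteasome genes had a peak, 8.33%, 4.17% and 4.17%, against 9.69%, 8.48% and 6.74% of all genes in that interval. In replicate 2 the only gene was Rpn3, and in replicate 3 the genes were Rpn3 and Rpn11. Replicate 1 had Rpn3, Rpn13 and 2 genes of the 20S core. Prosalpha3, an alpha subunit, had a summit 56 bp upstream with a signal of 45.7 (rank 2929 of 3195). Prosbeta2, a catalytic beta subunit, had a summit 48 bp upstream with a signal of 50.02 (rank 2711) and another 7052 bp downstream with 38.9 (rank 3128). Neither core gene had a peak in the thresholded lists of replicates 2 and 3.

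The ranked lists go below the threshold and hold from 17131 to 24457 peaks per replicate. In these, 24, 21 and 21 of the 48 proteasome genes had a peak in replicates 1, 2 and 3 (mean 22.0 ± 1.73 SD, n = 3), which are 50%, 43.8% and 43.8%. All protein-coding genes had 60.8%, 51.8% and 59.1%. Between the length quartiles the shares lay closer: 10, 9 and 9 of 24 proteasome genes, 41.7%, 37.5% and 37.5%, against 47.3%, 37.7% and 45.1% of all genes there. Of the 8 lid genes, 7, 6 and 5 had a ranked peak. The 7 alpha ring genes had 3, 4 and 3, the 7 beta ring genes 3, 3 and 1, the 6 ATPase genes 2, 3 and 1, and the 4 non-ATPase base genes 3, 1 and 1. Of the paralogues, 6, 4 and 10 of 16 had one, so the number in replicate 3 was the highest, while the canonical genes had 18, 17 and 11 of 32, with replicate 3 the lowest. No paralogue passed the threshold in any replicate.

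The ranked list of the series from which the conservative list was drawn gave 17 of 48, 35.4% (exact 95% interval 22.2 to 50.5), and 42.7% of all genes. The canonical genes alone had 15 of 32, 46.9%. Between the length quartiles the order was the other way, with 9 of 24 proteasome genes, 37.5%, against 31.4% of all genes there. Scores were read at the peak with the highest signal of each gene. Among these peaks outside the 5 genes, the highest score was at Rpn8, which pairs with Rpn11 in the lid, with a signal of 80.7 and a score of 587. Prosalpha3 had a score of 493 and a signal of 100.3, and Prosbeta1, a catalytic subunit, a score of 368 and a signal of 71.7. The lowest score in the conservative list was 830.

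**Figure D3:**
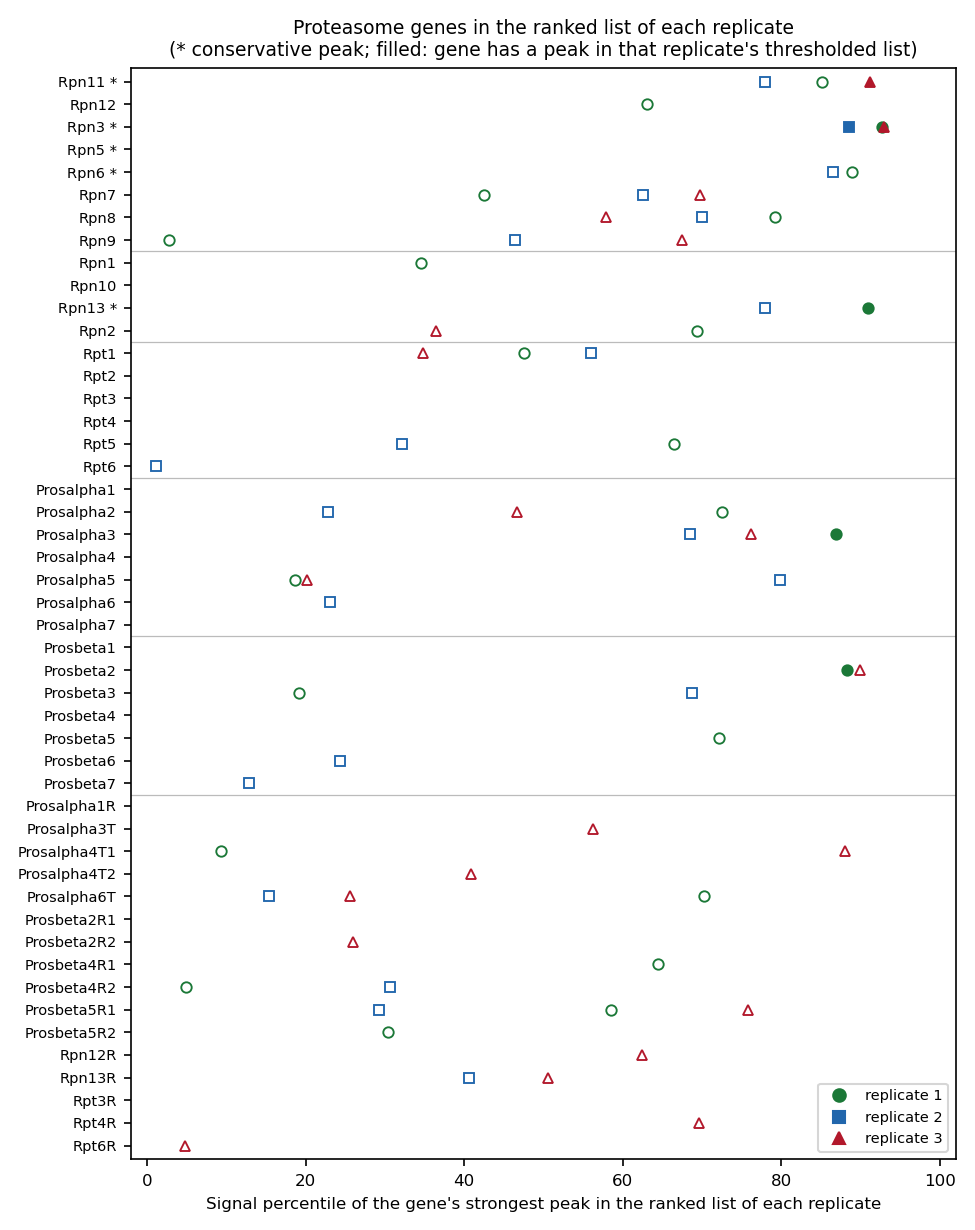
Signal percentile of the strongest peak assigned to each of the 48 proteasome genes within the ranked list of each replicate, with no symbol where a list has no peak for the gene. Filled symbols mark a gene with a peak in the thresholded list of that replicate and stars mark the 5 genes with a conservative peak. Rpn3 is the only gene with 3 filled symbols, and a replicate summit nearer to the start of a neighbouring gene, as at Rpn5, is not drawn.

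Many canonical proteasome genes share an upstream region with a gene transcribed the other way. Of the 32, 21 had a head-to-head start of another protein-coding gene within 500 bp upstream, beside 3815 of all 13945 protein-coding genes. Of the 21, 4 had a peak, 19%. The share over all genes with such a neighbour was 18.7%. Of the 11 canonical genes without such a neighbour, 1 had a peak, Rpn11. The neighbours of the bound genes were l(2)37Bb (178 bp from Rpn3), Hat1 (109 bp from Rpn5), ave, a scaffold gene of Ras signalling (250 bp from Rpn6), and CtsL1, a lysosomal protease gene (271 bp from Rpn13). In each of these 4, the counting rule itself requires the summit to lie nearer to the proteasome start than to that of the neighbour. The distances were 26 against 152 bp, 49 against 60 bp, 109 against 141 bp and 110 against 161 bp. The fragments were sonicated to 200 to 800 bp, so these differences are small beside the fragment length.

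Prosbeta2 showed how far the choice of the nearest gene matters. The conservative summit between Prosbeta2 and mRpL39, a mitochondrial ribosomal protein gene, lay 143 bp from Prosbeta2 and 142 bp from mRpL39, and so counted for mRpL39. It had a signal of 132.2 and rank 2687, and its replicate signals were 50.02, 48.4 and 41.1 with −log10 IDR values of 2.69, 1.93 and 1.59. Replicate 1 passed the threshold and the others fell short of it. When every start within 500 bp of a conservative summit was counted, nearest or not, 6 of 48 proteasome genes had a peak, 12.5%, and 12.9% of all genes did. Prosbeta2 was the gene added. With every start within 10 kb counted, 23 of 48 proteasome genes had a peak, 47.9%, and 47.1% of all genes did.

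Promoter sequences were compared over the window from 250 bp before to 50 bp after the first annotated start of each gene, on both strands. At Rpn6, which has 2 starts, the conservative summit lies by the other start and outside this window. The DNA replication-related element (DRE), TATCGATA, is bound in flies by the factor Dref at many housekeeping genes. It was in 12 of 32 canonical promoters, 37.5%, and in 0 of 16 paralogue promoters, while 9.37% of all 13945 promoters and 31.8% of the cytoplasmic ribosomal protein promoters held it. The centre of the word lay at offsets of -214 to 29 bp from the start, where a negative offset is upstream, with a median of -42 bp. Its shorter core CGATA, which is part of the DRE, was in 27 of 32 canonical promoters (84.4%), in 8 of 16 paralogue promoters and in 47.5% of all promoters. The promoters of both kinds of proteasome gene were richer in A and T than the rest, with medians of 66.4% for canonical genes and 67.3% for paralogues, against 62.1% for all genes. The element with its surroundings is shown in capitals for 8 of the 12 genes, on the strand of the gene (Release 6).

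Rpn3, chr2L:19051583-19051610, plus strand: gttatcggagTATCGATAtcgaaaaggc
Rpn7, chr3R:22462034-22462061, minus strand: cggtataattTATCGATAattttggggt
Rpn9, chr3R:23733419-23733446, minus strand: cccggttaaaTATCGATAttctcgcgga
Rpn12, chr3L:16582802-16582829, plus strand: tgttaaaataTATCGATAttaaagcaca
Rpt5, chr3R:23752820-23752847, plus strand: tcgctgtcacTATCGATAagcgccggcg
Prosalpha6, chr2L:10221325-10221352, plus strand: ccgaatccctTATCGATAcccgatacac
Prosbeta2, chr3L:14999931-14999958, plus strand: catgaatataTATCGATAcaatatcgat
Prosbeta6, chr3L:16610445-16610472, minus strand: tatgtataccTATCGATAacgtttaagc

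The element did not separate the genes with a peak from those without. Of the 12 canonical genes with a DRE in the promoter window, 2 had a peak (Rpn3 and Rpn13), 16.7%, and of the 20 without it 3 did, 15.0%. Over all genes the shares were 16.8% and 15.8%. None of the 5 summits had the DRE within 50 bp, and 2.24% of promoter summits of other genes did. The shorter core CGATA was within 50 bp of 1 of the 5, that of Rpn6 (20%), beside 16.3% of promoter summits of other genes. The nearest DRE lay 106 bp from the summit at Rpn3, 104 bp at Rpn13 and 165 bp at Rpn11, and there was none within 2000 bp of the summits at Rpn5 and Rpn6. At Rpn3 this was not the copy shown above, and at Rpn11 it lay outside the promoter window. In replicate 1 the peaks at Prosalpha3 and Prosbeta2 had it 35 and 42 bp from the summit. These were 40% of the 5 proteasome peaks of that list. The share over all summits of replicate 1 is not given here.

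The forkhead core TGTTTAC was within 50 bp of none of the 5 summits and of 2.65% of promoter summits of other genes. In the promoter windows it was in 4 of 32 canonical genes, 12.5%, and in 2 of 16 paralogues, also 12.5%, beside 9.24% of all genes. None of the 4 canonical genes with it (Rpt2, Rpt6, Prosbeta5 and Prosbeta6) had a peak, and 16.8% of all genes with the word did. The core of the antioxidant response element, TGACNNNGC, is recognised by the factor encoded by cnc, which in flies drives proteasome genes under stress. It was in 5 of 32 canonical promoters, 15.6%, beside 8.64% of all genes, at Prosalpha2, Prosbeta3, Rpn1, Rpn7 and Rpt6. None of these 5 had a peak, and 15.5% of all genes with the word did. The core of core promoter motif 1, GGTCACACT, was in 5 of 32, 15.6%, beside 6.05%. The GAGA word GAGAG was in 3 of 32, 9.38%, and in 6 of 16 paralogues, 37.5%, beside 29.8% of all genes. It was within 50 bp of 1 of the 5 summits, that of Rpn13 (20%), beside 7.6% of promoter summits of other genes. A word found in a window does not show that a factor bound it, and with 5 bound genes no difference between bound and unbound promoters was tested.

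**Figure D4:**
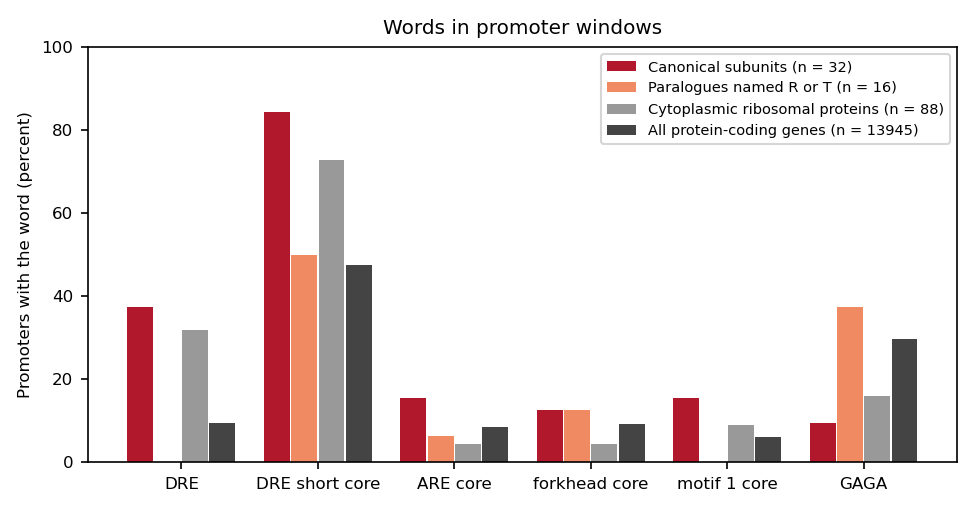
Percent of promoter windows (250 bp before to 50 bp after the start) holding each searched word, for canonical proteasome genes, paralogues, cytoplasmic ribosomal protein genes and all protein-coding genes; the short core is part of the DRE. The DRE is in 37.5% of canonical and 0% of paralogue promoters, beside 9.37% of all.

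Genes that assemble, regulate or feed the proteasome were looked at as well. Of 25 listed genes, 23 were matched to the annotation, and 7 of those had a conservative peak, 30.4% (exact 95% interval 13.2 to 52.9), beside the 15.9% of all genes. The strongest was at Pomp, which encodes a chaperone of core assembly: the stronger of its 2 peaks had its summit 237 bp upstream and a signal of 215.7. Ubi-p63E, a polyubiquitin gene, had 196.1 with the summit 39 bp downstream of a start. ntc, an F-box gene required in the male germline, had 148 at 124 bp upstream. These were each shared with 2 replicates, as was the weak peak at the chaperone gene Hsc70-4 (38.0). The pair that controls proteasome expression under stress had weak peaks shared with no replicate: cnc had 104.6, 330 bp downstream of a start, and its inhibitor Keap1 had 105.5, 55 bp upstream. Prp19, a ubiquitin ligase gene of the splicing machinery, had 108.9, also shared with none. Of all 3644 conservative peaks, 879 were shared with 2 replicates and 380 with none. The thresholded lists of replicates 1, 2 and 3 gave 3, 3 and 0 of the 23 genes an assigned peak, 13%, 13% and 0%, beside 14.9%, 12.3% and 9.73% of all genes. Keeping conservative peaks shared with both other replicates when replicate 1, 2 or 3 was left out gave 0, 0 and 4 of the 23, or 0%, 0% and 17.4%, beside 8.45%, 8.92% and 11.1% of all genes. Among these leave-outs the share was above that of all genes only without replicate 3. They re-use the same thresholded lists, of which that of replicate 3 gave 0 of the 23, so they are not a separate check. In the ranked lists of replicates 1, 2 and 3 the shares were 60.9%, 52.2% and 78.3%, beside 60.8%, 51.8% and 59.1% of all genes. The other 16, among them the base-binding deubiquitinases Uch-L5 and Usp14, the lid subunit gene Sem1 and the activator gene REG, had no conservative peak.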

How the data were processed

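Each replicate had a ranked and a thresholded list of peaks on dm6, the build named in the labels; aligner, peak caller and their versions: not given in the sources used here. Peaks carry a signal from the authors' caller, of unstated scale, and a score that the authors derived from the IDR, with 1000 as its highest value. The authors' ranked lists add the −log10 of the global IDR. Read counts were not used, so depth is unknown, and intervals cover counting error only, with genes as units. The thresholded lists held 3195, 2408 and 1815 peaks on the arms and the conservative list 3644. What each series-level list was called on is not stated.

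Annotation was BDGP6.54 (Ensembl 115), with sequence of the Release 6 assembly. Summits were column 2 plus column 10, and starts tied at equal distance all received the peak. Named genes were members with a peak in the conservative or a replicate list, members without one within their group, the neighbour across a shared promoter, and pathway genes with a peak; other genes were named after their values were seen. The members, lists and words were chosen with earlier results of these data known. There is 1 group, so no test was run; shares are set beside those of all genes. Scripts (Python 3.11.15, scipy 1.17.1) were tested on simulated data.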

Additional observations from a re-analysis of the deposited data

How the results depend on the processing

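The count of 5 proteasome genes (all canonical) was 5 at limits of 1 and 50 kb and by the nearest start of any gene. Peaks with a score of 1000 gave 3 proteasome genes (6.25%), 4 pathway genes (17.4%), 13.9% of all genes and a median AT of 68.3%. The strongest 50% gave 1 and 2 (2.08% and 8.7%, against 9.7% of all genes), AT 75.2%, percentile 4.03 and 100% shared with all replicates. Without peaks that have a stronger neighbour the percentile was 16.4. The whole ranked list gave 17 (15 canonical) and 14, with 47.4% at promoters, percentile 40.7 and AT 49.5%. Counting every start within 10 kb gave 23 (21 canonical) and 11, beside 47.1% of all genes, with 70%, 43.5 and 69.8%. The list of replicate 1 gave 4 and 3, with 80% at promoters and percentile 15.2. The DRE was at 40% of its 5 proteasome summits, and the share over all its summits is not given. The list of replicate 2 gave 1 and 3, with 100% shared, and that of replicate 3 gave 2 and 0, with percentile 10.7 and AT 70.8%. Windows reaching 25 and 100 bp to each side gave AT of 68.6% and 66.7%. Leaving out each replicate (peaks shared with both others) gave 1 proteasome gene each time, Rpn3 (2.08%, against 8.45% to 11.1% of all genes), with 0 to 4 pathway genes, percentile 12.3 to 26.9, AT 75.2% and 100% shared. These leave fewer peaks by construction; for the other settings the cause was not tested. No paired analysis was possible because there is 1 group.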
